A study of Mus musculus with 2 samples.

Results

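The transcription factors that assemble around GATA1 in red cell precursors, and the erythroid factors that work beside them, are described here in differentiating G1E-ER4 cells. They are 10 genes, Gata1, Zfpm1, Tal1, Lmo2, Ldb1, Tcf3, Cbfa2t3, Gfi1b, Klf1 and Nfe2, chosen by name from the 43346 Ensembl genes of the deposited gene tables, of which 21461 are nuclear protein-coding genes. All 10 were found in both gene tables, and their 63 listed transcripts were taken from both transcript tables. G1E-ER4 is a mouse erythroid precursor line, labelled male and of strain C57BL/6J. It is a clone of the Gata1-null G1E line that expresses GATA1 fused to the ligand-binding part of the estrogen receptor. The cells had received 10 nM 17β-estradiol for 24 h, which lets the fusion protein act and starts erythroid maturation. Total RNA was sequenced in 2 libraries, biological replicates 1 and 2 of a single group. There is no untreated group, so nothing below measures a change with estradiol, and with no contrast no p-value is given.

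GATA1 is a zinc finger protein that binds GATA motifs and is required for red cell and platelet development. In erythroid cells it works with FOG1, the product of Zfpm1, and with a complex in which TAL1, paired with an E protein on an E-box, is bridged to GATA1 by LMO2 and LDB1. The corepressor ETO2, the product of Cbfa2t3, joins that complex. The repressor GFI1B recruits the LSD1 and CoREST histone demethylase complex, KLF1 binds CACCC boxes of globin and other red cell genes, and NFE2 pairs with a small MAF protein at globin enhancers.

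Levels are given as TPM, a share of all transcripts that is corrected for length and so allows genes to be set side by side. The libraries held 50277914 (replicate 1) and 47478888 (replicate 2) expected counts, with 14373925 and 13901316 on nuclear protein-coding genes. Much of TPM belonged to other RNAs, so a TPM over nuclear protein-coding genes alone would be 4.41 and 4.37 times higher for every gene named here. A count of 0 allows up to 3 counts, which for a transcript with an effective length of 1 kb means up to 0.0910 and 0.0957 TPM in replicates 1 and 2; this limit covers counting error only.

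All 10 factors were expressed well above the median protein-coding gene. Each reached the TPM of 1 in both libraries that was required here for detection, which 40.2% of nuclear protein-coding genes reached. Mean TPM ran from 26.0 for Cbfa2t3 to 121.9 for Gfi1b, a 4.69-fold range. The median of the 10 was 50.9, beside 9.76 over the 8620 detected nuclear protein-coding genes, and every factor lay between the percentiles 80.2 and 97.0 of those genes. Counts per factor and library ran from 1155 to 6419. The counts were whole numbers whose deposited posterior SD was 0 in both libraries for 10 of 10 factors, so no reads were shared out between a factor and another gene. This was also so for 80.2% of all genes whose mean TPM was at least 1.

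**Figure D1:**
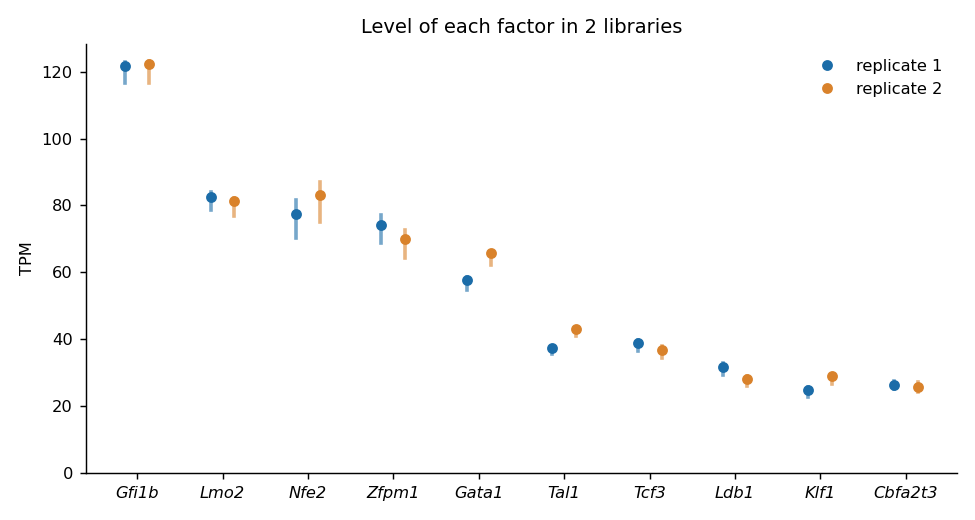
TPM of each factor (vertical axis, linear from 0) in replicate 1 (blue) and replicate 2 (orange), in order of mean TPM. Vertical lines are the deposited TPM intervals of each library. Gfi1b stands alone near 122, and Cbfa2t3, Klf1 and Ldb1 lie lowest, between 24.8 and 31.6.

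The order of the mean levels was Gfi1b, Lmo2, Nfe2, Zfpm1, Gata1, Tal1, Tcf3, Ldb1, Klf1 and Cbfa2t3. In 5 of the 9 neighbouring pairs the ranges of the 2 libraries did not overlap. The other 4 pairs, Lmo2 and Nfe2, Tal1 and Tcf3, Ldb1 and Klf1, and Klf1 and Cbfa2t3, changed places or overlapped between libraries and are not ordered by these data. The place of Nfe2 and the level of Zfpm1 depend on short transcript models.

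Gata1 (ENSMUSG00000031162.10) lies on the X chromosome at 7959260 to 7978071 in mm10. It reached 57.6 and 65.7 TPM in replicates 1 and 2, a mean of 61.6 ± 5.74 (SD, n = 2), from 3375 and 3626 counts. The libraries did not overlap within their deposited intervals, and replicate 2 was higher. These reads may come from the estrogen receptor fusion as well as from the disrupted locus, and the gene value does not divide them. Gata1-201, which encodes the protein of 413 residues, held 99.6% and 98.8% of Gata1 TPM, and Gata1-202, which begins at a distal start, had 0 counts in both libraries. Gata1 was not the highest GATA gene. Gata2, the factor of stem and progenitor cells that GATA1 normally displaces, had 78.5 and 75.3, so that Gata1 held 41.2% of the family's TPM in replicate 1 and 45.9% in replicate 2. Gata3, a lymphoid and mast cell factor, was low at 3.76 and 2.16 (0.86 and 1.16 over transcripts of 1000 nt or longer, a measure added after the data were seen), and Gata4, Gata5 and Gata6 had 0 counts in both libraries.

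Zfpm1 (ENSMUSG00000049577.10, chromosome 8, 122282141 to 122337251) encodes FOG1, which does not bind DNA on its own and is held by the amino-terminal zinc finger of GATA1. It stood at 74.1 and 69.9 TPM, a mean of 72.0 ± 2.98 (SD, n = 2). Replicate 1 was the higher, the reverse of Gata1, and the ratio of Zfpm1 to Gata1 was 1.29 and 1.06. Counted only over transcripts of 1000 nt or longer, Gata1 was the higher and the ratio was 0.855 and 0.729. Its paralog Zfpm2, a cofactor of GATA4 in the heart, had 0 counts in both libraries. Zfpm1-201, the only model of the gene with a complete coding sequence (995 residues), held 66.1% and 67.7% of TPM. The rest lay on 2 short non-coding models, Zfpm1-204 (559 nt) and Zfpm1-202 (865 nt), near the end of the gene. They took 33.9% and 32.3% of TPM but 7.6% of counts in both libraries.

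Among the basic helix-loop-helix genes, Tal1 and Lyl1 had RNA at like levels, and all 3 E protein genes were detected. Tal1 (ENSMUSG00000028717.8, chromosome 4, 115056426 to 115071755), which is needed for all blood formation, had 37.2 and 43.1 TPM, a mean of 40.2 ± 4.19 (SD, n = 2). The deposited intervals did not overlap and replicate 2 was higher. Lyl1, a close paralog that can form the same complexes, had 38.2 and 37.6 TPM. It was above Tal1 in replicate 1 and below it in replicate 2, so neither leads on TPM. Tal2 had 0 counts in replicate 1 and 1 in replicate 2. On expected counts, where length is not taken into account, Tal1 held 70.3% and 73.6% of the family, and its transcript of 4213 nt is long.

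Tcf3 (ENSMUSG00000020167.10, chromosome 10, 80409514 to 80433647) encodes the E proteins E12 and E47. It had 38.8 and 36.7 TPM, a mean of 37.7 ± 1.46 (SD, n = 2), within overlapping deposited intervals. It held 33.5% and 33.4% of E protein TPM, behind Tcf12 (65.0 and 61.7), which encodes HEB, and ahead of Tcf4 (11.8 and 11.6), which encodes E2-2. Over transcripts of 1000 nt or longer Tcf12 had 32.4 and 31.7 and Tcf3 34.3 and 30.2, so that Tcf3 was the higher in replicate 1 and Tcf12 in replicate 2. On expected counts Tcf12 led in both libraries and Tcf3 held 28.4% and 26.6% of the family. The ratio of Tal1 to Tcf3 was 0.960 and 1.18 in the 2 libraries. Id proteins bind E proteins and keep them from DNA. Of the 4 Id genes only Id1 was detected, at 10.0 and 11.7 TPM (1.20 and 1.85 over transcripts of 1000 nt or longer). Id3 and Id4 had 0 counts and Id2 had 0 and 1.

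E12 and E47 come from mutually exclusive exons of Tcf3 that encode the basic helix-loop-helix region, the part that binds the E-box and the partner. E47 binds DNA readily as a homodimer and E12 does so poorly, while both bind with a partner such as TAL1. Both exons are shown because the split between the RNAs of these proteins can be read from the transcript values. They are given in the direction of transcription (minus strand of chromosome 10, mm10, from the GENCODE M21 transcripts), with the matching stretch of the basic region in capitals, bases 71 to 94 of the E12 exon and 62 to 85 of the E47 exon.
E12 exon, chr10:80412827-80413062, 236 nt: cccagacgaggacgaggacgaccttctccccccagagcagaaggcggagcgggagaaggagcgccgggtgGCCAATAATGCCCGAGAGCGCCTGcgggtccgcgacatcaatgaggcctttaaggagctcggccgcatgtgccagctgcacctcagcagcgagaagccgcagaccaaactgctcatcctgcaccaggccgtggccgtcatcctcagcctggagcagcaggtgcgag
E47 exon, chr10:80410398-80410624, 227 nt: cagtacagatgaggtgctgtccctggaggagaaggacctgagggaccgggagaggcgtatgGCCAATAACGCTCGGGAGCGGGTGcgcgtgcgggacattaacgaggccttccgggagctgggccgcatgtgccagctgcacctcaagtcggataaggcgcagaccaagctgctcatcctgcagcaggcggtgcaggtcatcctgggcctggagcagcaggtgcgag
The exons matched at 175 of 236 aligned positions, or 74.2%. Among the protein-coding models assigned to either exon, those with the E47 exon held 66.5% (replicate 1) and 76.9% (replicate 2) of TPM. The mean was 71.7% ± 7.36 (SD, n = 2). On expected counts the E47 models held 69.8% and 78.5%. Among these models the E47 form was thus the larger in both libraries, with 22.8 and 23.2 TPM, whereas the E12 form had 11.5 and 6.96. Short and non-coding models, of which Tcf3-212 was the highest (3.74 and 4.67 TPM), were not assigned to an exon.

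Several single transcripts of Tcf3 were less steady than these sums. Of 14 listed models 7 had counts in both libraries, and Tcf3-205 led with 22.1% and 24.1% of TPM. Tcf3-208, with the E47 exon, had 8.42% in replicate 1 and 19.5% in replicate 2, and Tcf3-203, with the E12 exon, had 19.1% and 8.66%. Tcf3-202 had 17.8% and 19.6%, and the non-coding model Tcf3-212 9.65% and 12.7%. Models that start at 80433621 to 80433647 held 47.1% and 49.3% of TPM and those that start at 80430985 to 80431082 held 41.2% and 32.8%, so both starts were in use by this estimate.

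The RNAs of the bridging proteins stood at unequal levels, with that of the LIM-only protein above that of its LIM-binding partner. Lmo2 (ENSMUSG00000032698.11, chromosome 2, 103957986 to 103981878) had 82.7 and 81.2 TPM, a mean of 81.9 ± 1.03 (SD, n = 2). Ldb1 (ENSMUSG00000025223.10, chromosome 19, 46031570 to 46045214), whose product dimerizes and links enhancers with promoters, had 31.6 and 28.0 TPM, a mean of 29.8 ± 2.57 (SD, n = 2). The libraries agreed within their intervals for Lmo2, while for Ldb1 the intervals did not overlap and replicate 2 was lower. The short retained-intron model Ldb1-204 (900 nt) had 3.66 and 0.42 TPM, and over transcripts of 1000 nt or longer Ldb1 had 27.9 and 27.5. Lmo2 was 2.61 and 2.90 times Ldb1. The ratio to Ldb1 was 1.82 and 2.35 for Gata1, 1.18 and 1.54 for Tal1, and 1.23 and 1.31 for Tcf3. Ldb1 was thus the lowest of the 5 core subunits Gata1, Tal1, Tcf3, Lmo2 and Ldb1 in both libraries, on the scale of RNA.

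Lmo2 held 70.6% and 71.6% of the TPM of its family. Lmo4, which also binds LDB1, had 34.4 and 32.2 TPM, and Lmo1 and Lmo3, which are known from neurons and T cell leukemia, had 0 counts in both libraries. Ldb2 also had 0 counts in both. The single-stranded DNA-binding proteins shield LDB1 from degradation, and RLIM marks it for degradation. Ssbp3 was the highest of these at 77.2 and 76.6 TPM, 2.44 and 2.74 times Ldb1 (1.47 and 1.33 times over transcripts of 1000 nt or longer), followed by Rlim (25.5 and 26.5), Ssbp2 (15.9 and 19.3) and Ssbp4 (6.85 and 5.48). All 4 were detected, beside 40.2% of nuclear protein-coding genes.

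Lmo2 is known to be transcribed from several promoters, and 1 start carried nearly all of its RNA here. Lmo2-208, which begins at the distal start at 103957995 and encodes 158 residues, held 94.95% and 95.27% of TPM. The models that start at 103970129 to 103970244 held 0.870% and 0.960% together. Ldb1 was the one factor whose leading transcript was not the same in both libraries, against 22.5% of the 6477 detected nuclear protein-coding genes with several listed transcripts. Ldb1-201 held 44.8% and 31.5% of TPM, and Ldb1-205, which encodes 319 residues, held 23.6% and 33.4%. Part of this difference lay between models of the same protein. Ldb1-201 and Ldb1-202 encode the same 375 residues and together held 49.3% and 46.4%. Ldb1-206 (373 residues) had 15.4% and 18.5%, and the 2 models of 411 residues had 0 counts. Pprc1, on the opposite strand, overlaps the 5′ end of Ldb1 by 329 nt and had 2782 and 2981 counts, and no source used here says whether counting used strand.

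The corepressors differed more in level than the core subunits. Gfi1b (ENSMUSG00000026815.10, chromosome 2, 28609450 to 28621982) had 121.6 and 122.2 TPM, a mean of 121.9 ± 0.424 (SD, n = 2), the highest of the 10 in both libraries. Cbfa2t3 (ENSMUSG00000006362.11, chromosome 8, 122625141 to 122699109) had 26.3 and 25.7, a mean of 26.0 ± 0.389. On TPM over all transcripts, these 2 repressor genes had the smallest and the third smallest relative spread of the 10 between libraries. Their coefficients of variation were 0.348% and 1.497%, and Lmo2 lay between them at 1.26%. For Cbfa2t3 this depended on the measure. Over transcripts of 1000 nt or longer it had 24.9 and 22.6 TPM, while its retained-intron model Cbfa2t3-207 (537 nt) had 1.34 and 3.11. On counts scaled by edgeR the log2 ratio of replicate 2 to replicate 1 was -0.150 for Cbfa2t3 and -0.022 for Gfi1b. Gfi1, the paralog that acts in stem cells and granulocytes, had 0 counts in both libraries. Cbfa2t2 had 5.86 and 7.53 TPM, so Cbfa2t3 held 81.8% and 77.3% of its family, and Runx1t1 had 0 counts.

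Gfi1b was made in 2 coding forms in a steady ratio. Gfi1b-201, which encodes 330 residues, held 72.3% of Gfi1b TPM in replicate 1 and 72.1% in replicate 2, and Gfi1b-204, which encodes 363 residues, held 27.7% and 27.9%. On counts Gfi1b-201 held 70.6% and 70.3%. The forms differ by 99 coding bases, or 33 codons, that only Gfi1b-204 includes. They are shown because they are the coding difference between the forms (chr2:28611585-28611683, minus strand, mm10, from GENCODE M21).
Gfi1b-204 added bases, 99 nt: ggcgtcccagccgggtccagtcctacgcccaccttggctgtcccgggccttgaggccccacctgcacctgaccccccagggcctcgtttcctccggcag
These bases are 72.7% G or C. For Cbfa2t3, Cbfa2t3-203, which begins at the distal start and encodes 620 residues, held 90.4% and 85.4% of TPM, and Cbfa2t3-201 (559 residues) held 4.54% and 2.44%. The Cbfa2t3-203 model was 4047 nt in the tables and is 7645 nt in GENCODE M21, so reads on the added bases were not part of its value.

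The genes of the coregulators that these factors recruit were all expressed. The list of 20 holds subunits of the NuRD and LSD1-CoREST complexes, acetyltransferases and BET proteins. Detected were 20 of 20, beside 40.2% of all nuclear protein-coding genes, and the median of the 20 was 31.9 TPM. The highest were Rbbp7 (129.5 and 129.4), a histone-binding subunit of NuRD, the NuRD remodeller Chd4 (69.0 and 72.0, or 42.5 and 47.8 over transcripts of 1000 nt or longer), the LSD1 partner Rcor1 (68.7 and 71.5) and Mta1 (69.2 and 64.8). Kdm1a, the LSD1 gene itself, was at 21.99 and 20.44. The lowest were Mbd3 (10.3 and 11.8) and Hmg20b (8.93 and 6.94, or 3.02 and 3.32 over transcripts of 1000 nt or longer), a subunit of the LSD1 complex. Beside them Gfi1b, the factor that recruits LSD1, was in the range of Rbbp7 on TPM over all transcripts. Over transcripts of 1000 nt or longer Rbbp7 had 93.1 and 84.0 and Gfi1b 121.6 and 122.2, so Gfi1b was the higher.

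Klf1 (ENSMUSG00000054191.7, chromosome 8, 84901928 to 84905291) had 24.8 and 29.0 TPM, a mean of 26.9 ± 2.98 (SD, n = 2), from 1155 and 1281 counts. Its deposited intervals did not overlap and replicate 2 was higher. Klf1 thus stood among the 3 lowest of the 10 factors in both libraries. Hbb-bs, the adult beta-globin gene that KLF1 is best known for, had 993.9 and 1008 TPM, from counts partly shared out with another gene. Gata1 was 2.33 and 2.27 times Klf1, the steadiest of the 8 ratios computed between factors on TPM over all transcripts. That place depends on the measure. Over transcripts of 1000 nt or longer, Lmo2 was 2.836 and 2.838 times Ldb1. Klf1 has 1 listed transcript, Klf1-201, which encodes 376 residues.

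Nfe2 (ENSMUSG00000058794.8, chromosome 15, 103248212 to 103258403) had 77.6 and 83.0 TPM, a mean of 80.3 ± 3.83 (SD, n = 2), with overlapping intervals. On this scale it held 61.8% and 65.4% of a family of 6. Nfe2l2, which encodes the stress factor NRF2, followed at 30.7 and 30.4, then Nfe2l1 (13.3 and 10.0, or 4.65 and 4.93 over transcripts of 1000 nt or longer) and the heme-regulated repressor Bach1 (4.02 and 3.57). Bach2 had 0 and 2 counts and Nfe2l3 had 0. The small MAF partners were far lower. Mafg had 3.78 and 5.48 TPM, Mafk 3.25 and 3.1 and Maff 0.650 and 0.860. The Nfe2 value was 10.1 and 8.79 times their sum, and 4.36 and 3.28 times over transcripts of 1000 nt or longer.

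**Figure D2:**
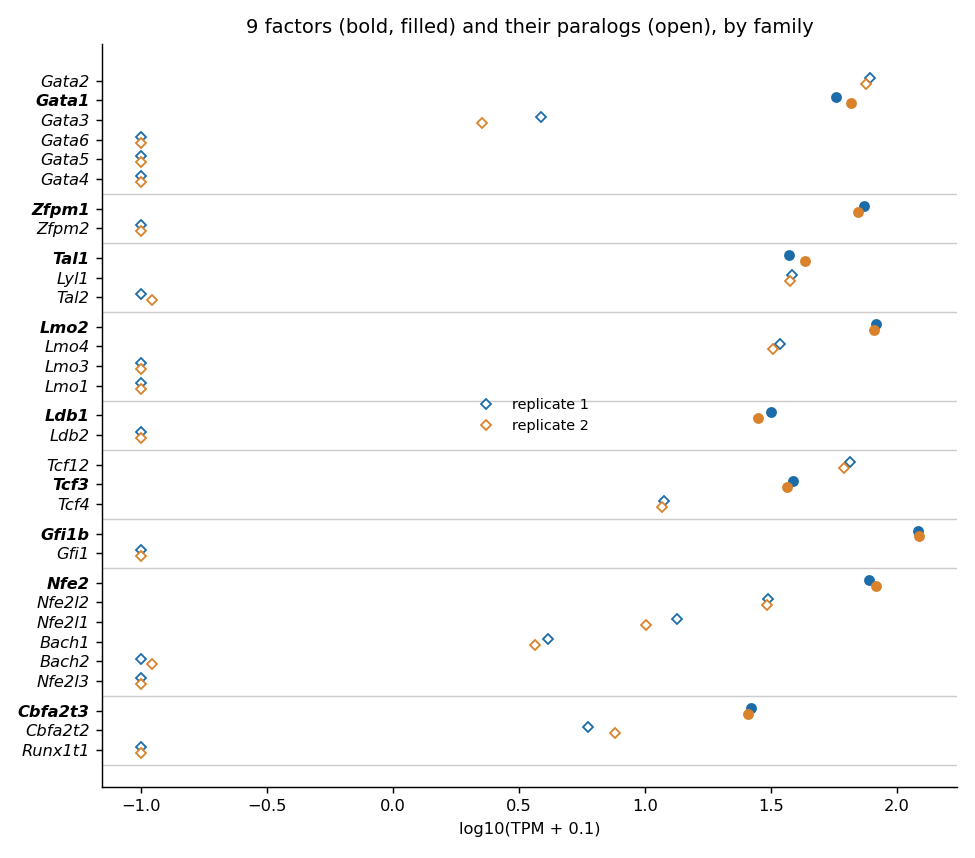
Each dot is the TPM of a gene in replicate 1 (blue) or replicate 2 (orange), on a log10 scale with 0.1 added, for 9 factors (filled circles, bold names) and their paralogs (open diamonds). Lines part the families. Gata2 lies above Gata1, Tcf12 above Tcf3, Lyl1 level with Tal1, and 10 of the 22 paralogs had 0 counts in both libraries (left edge).

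Taking the 9 families, the factor was the highest member in both libraries in 6, Zfpm1, Lmo2, Ldb1, Gfi1b, Nfe2 and Cbfa2t3. It was not in the other 3, Gata1, Tal1 and Tcf3. On TPM, the lead of Nfe2 over Nfe2l2 and of Tcf12 over Tcf3 rested on short models, while on expected counts Tcf12 led its family in both libraries.

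The high level of Nfe2 was carried by a short model. Nfe2-203 is an incomplete model of 362 nt at the distal start (103258403), with an effective length of 243.0 and 239.2 nt. It held 40.9% and 44.6% of Nfe2 TPM in replicates 1 and 2 but 11.5% and 13.7% of the counts. Nfe2-201, the full-length model of 1697 nt that encodes 373 residues, held 32.3% and 22.3% of TPM and 58.8% and 45.0% of counts. All Nfe2 models under 1000 nt together held 58.0% and 66.2% of TPM. Counted only over transcripts of 1000 nt or longer, Nfe2 had 32.6 and 28.0 TPM, a mean of 30.3 ± 3.24 (SD, n = 2). That put it seventh of the 10 in place of the third, and level with Nfe2l2 (30.7 and 30.4).

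Other genes moved under the same measure. Zfpm1 went to 49.0 and 47.3 and stayed the fourth, and Gata1, at 57.4 and 64.9, took the third place. Ssbp3 went to 41.2 and 36.5. Gfi1b (121.6 and 122.2), Lmo2 (79.2 and 78.1) and Tal1 (37.2 and 43.0) hardly moved.

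**Figure D3:**
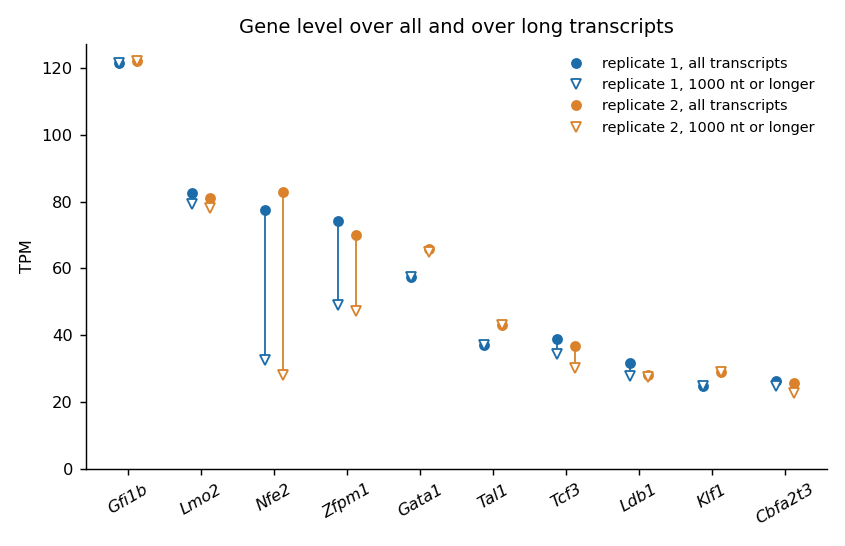
TPM of each factor (vertical axis, from 0) summed over all its transcripts (filled circles) and over those of 1000 nt or longer (open triangles), in replicate 1 (blue) and replicate 2 (orange). Nfe2 drops from 77.6 and 83.0 to 32.6 and 28.0 and Zfpm1 from 74.1 and 69.9 to 49.0 and 47.3, while Gfi1b, Gata1, Tal1 and Klf1 stay in place.

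One transcript held at least 50% of TPM in both libraries in 6 of the 9 factors with several listed transcripts, namely Gata1, Tal1, Lmo2, Cbfa2t3, Gfi1b and Zfpm1. Over the 6477 detected nuclear protein-coding genes with several transcripts this share was 52.7%. The factors without such a transcript were Nfe2, Ldb1 and Tcf3. Of the 63 listed transcripts 21 had no count in either library, and the share over the transcripts of all genes was not computed. Tal1-201, at the start at 115056426, held 99.3% and 98.5% of Tal1 TPM, and models that encode the same 329 residues held 100% and 99.6% together.

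**Figure D4:**
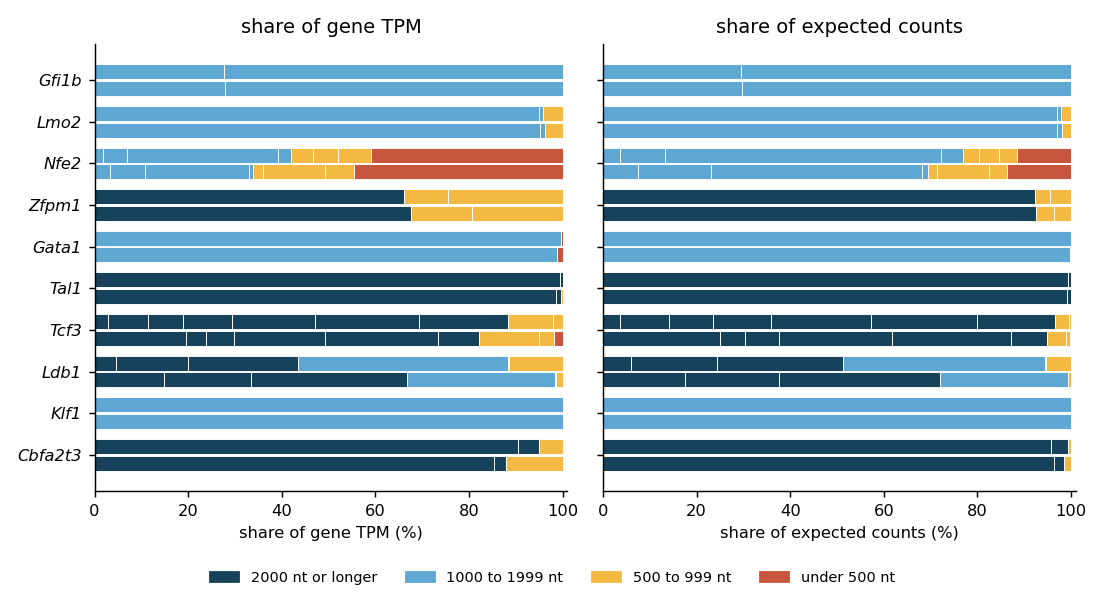
Share of each factor's TPM (left) and of its expected counts (right), in percent, by annotated transcript, with replicate 1 above replicate 2 for each gene. White lines part the transcripts and colours give their length. Short models (yellow and red) fill 58.0% and 66.2% of Nfe2 TPM and 33.9% and 32.3% of Zfpm1 TPM, and less of the counts.

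The replicates differed for these genes about as much as for other genes with like counts. None of the 10 factors was 2-fold or more apart between libraries, and 4.73% of the 10041 genes whose mean TPM was at least 1 were. The log2 ratio of replicate 2 to replicate 1, with 0.1 added to TPM, ran from -0.18 for Ldb1 to 0.23 for Klf1. The median of its size was 0.0907, beside 0.102 for the 2448 nuclear protein-coding genes with counts in the range of the factors and 0.175 for all. On TPM replicate 2 was the higher for 5 factors and the lower for 5. On counts scaled by edgeR or DESeq2 it was the higher for 3, Gata1, Tal1 and Klf1, and the lower for 7, since Nfe2 and Gfi1b turned.

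The deposited TPM intervals of the libraries did not overlap for 4 of 10 factors. Gata1, Tal1 and Klf1 were higher and Ldb1 was lower in replicate 2. This was so for 24.1% of the 10041 genes and for 29% of those 2448 nuclear protein-coding genes. The deposited intervals come with no stated level in the sources used here, and they do not include the spread between cultures. With 2 libraries the SD of each factor is itself only roughly known. Of other lineages, granulocyte and macrophage markers summed to 1.78 TPM in replicate 1 and 5.99 in replicate 2, with none of 14 detected. Mpo had 1 and 70 counts, Elane 0 and 17 and Cd68 22 and 53, whereas Prtn3 had 8 and 5 and Lyz2 10 and 6, and Ly6g, Csf1r and S100a8 had 0 in both. Megakaryocyte markers summed to 35.6 and 26.6 TPM with 4 of 12 detected, led by Pf4 at 19.0 and 10.5. Itga2b (5.75 and 6.94) and Gp5 (1.94 and 2.05) were higher in replicate 2, Gp1ba (4.42 and 3.82) was lower, and Vwf and Selp had 0. The part of such cells in the replicate differences was not tested.

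**Figure D5:**
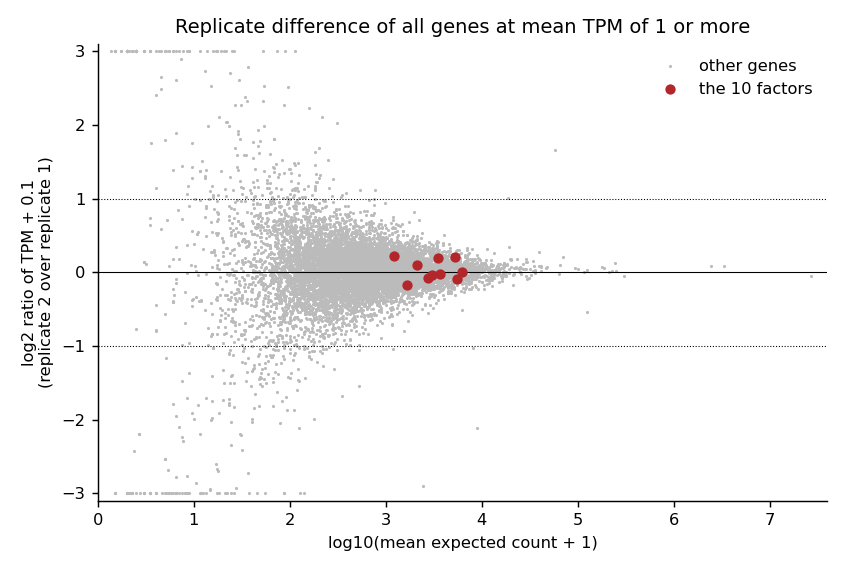
Log2 ratio of TPM + 0.1, replicate 2 over replicate 1 (vertical axis), against the mean expected count on a log10 scale (horizontal axis), for all genes whose mean TPM was at least 1 (grey) and the 10 factors (red). Dotted lines mark a 2-fold difference. Ratios beyond 3 are drawn at the edge. The factors lie between -0.18 and 0.23.

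The promoters of these genes were read for the motifs that the factors themselves bind. RefSeq windows (build GRCm38.p6) were found for 8 of the 10 genes, 12 windows in all, with none for Lmo2 and Nfe2. The 250 bases before each start were searched on both strands. A GATA motif (the letters GATA with A or T before them and A or G after them) was in 5 of the 12 windows, or 41.7%, beside 26.5% of all 32851 windows. The CACCC box CCNCNCCC, which GC-rich sequence also matches, was in 10 of 12, or 83.3%, beside 45.9%. An E-box (CANNTG) was in 7 of 12, or 58.3%, beside 66.2%, and the NFE2 core (TGAGTCA or TGACTCA) was in none, beside 4.46%. No matches of different motifs overlapped. A match is a description of these letters, and 12 windows of 8 genes are too few to set apart from the rest.

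The windows with a GATA motif next to a start in use, and that of Gata1, are shown with GATA motifs and CACCC boxes in capitals, 5′ to 3′ in the direction of transcription. They stop before the first annotated transcript base.
Gata1, chrX:7967911-7968160, minus strand: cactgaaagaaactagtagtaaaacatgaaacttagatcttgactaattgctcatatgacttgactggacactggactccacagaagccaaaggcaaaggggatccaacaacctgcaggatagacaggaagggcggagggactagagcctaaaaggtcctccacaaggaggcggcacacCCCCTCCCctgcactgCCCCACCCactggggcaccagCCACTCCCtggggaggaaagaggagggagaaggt
Tal1, chr4:115056176-115056425, plus strand: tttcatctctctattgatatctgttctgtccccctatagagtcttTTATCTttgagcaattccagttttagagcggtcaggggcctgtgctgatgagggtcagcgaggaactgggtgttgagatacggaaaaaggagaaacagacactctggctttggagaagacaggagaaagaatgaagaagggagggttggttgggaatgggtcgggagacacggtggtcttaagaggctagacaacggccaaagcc
Gfi1b, chr2:28621983-28622232, minus strand: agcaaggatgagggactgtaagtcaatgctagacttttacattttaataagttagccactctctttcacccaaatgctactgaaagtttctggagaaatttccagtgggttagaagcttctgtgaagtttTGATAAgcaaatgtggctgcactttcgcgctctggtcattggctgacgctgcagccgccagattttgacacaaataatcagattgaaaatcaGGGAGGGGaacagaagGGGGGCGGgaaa
Cbfa2t3, chr8:122699110-122699359, minus strand: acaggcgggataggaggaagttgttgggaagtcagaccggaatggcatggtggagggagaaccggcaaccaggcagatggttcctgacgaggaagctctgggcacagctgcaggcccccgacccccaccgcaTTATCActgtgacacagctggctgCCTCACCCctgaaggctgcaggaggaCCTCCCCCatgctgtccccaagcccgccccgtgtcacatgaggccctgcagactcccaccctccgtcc
Klf1, chr8:84901732-84901927, plus strand: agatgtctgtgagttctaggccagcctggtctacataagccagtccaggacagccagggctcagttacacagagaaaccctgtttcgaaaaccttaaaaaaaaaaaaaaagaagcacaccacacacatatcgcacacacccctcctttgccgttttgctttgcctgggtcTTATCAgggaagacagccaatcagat
Tal1, Cbfa2t3 and Ldb1 have windows at more than 1 start. In Tal1 and Cbfa2t3, but not in Ldb1, the window with a GATA motif lies at the start whose transcript held most of the RNA. These were Tal1-201 with 98.9% ± 0.566 and Cbfa2t3-203 with 87.9% ± 3.48 of TPM (SD, n = 2). The second Tal1 window, at the start of Tal1-203 (0.840% of TPM), has 4 CACCC boxes and no GATA motif. The Gata1 window has 3 CACCC boxes and no GATA motif within its 250 bases. The remaining GATA motifs, 2 of them, lie in the Ldb1 window before 46037070, which is not a start of any listed Ldb1 transcript. The Ldb1 window at the start of Ldb1-202 (9.74% of TPM) has no GATA motif.

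Target genes of the factors covered a wide range. Of 27 erythroid genes matched (Ahsp was not analysed here), 26 were detected, beside 40.2% of nuclear protein-coding genes. The median over the 27 was 31.3 TPM. Beyond Hbb-bs, the highest were the heme enzyme gene Cpox (362.8 and 361.1) and the mitophagy receptor gene Bnip3l (292.0 and 303.6, or 68.6 and 62.8 over transcripts of 1000 nt or longer). The transferrin receptor gene Tfrc (164.2 and 155.6) and the alpha-globin gene Hba-a2 (162.4 and 156.6) followed, level with each other. Counts of Hba-a2, Hba-a1 and Hbb-bs were not whole numbers, so reads of each were shared out with another gene and their levels are uncertain. The same was so for some other genes named here, among them Rbbp7, Stat5a, Hdac1 and Cbfa2t2. The lowest above 0 were Trim10 (1.93 and 2.42) and the membrane skeleton gene Epb42 (1.52 and 2.00). Trim58 had 0 counts in both libraries. With 1 group, these levels cannot be tied to those of the factors.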

How the data were processed

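Deposited gene and transcript tables of total RNA from 1 group of 2 libraries were used. The labels give the assembly mm10, and the deposited readme text names GENCODE M4. Column names are those of RSEM. The aligner, quantifier version, trimming and strand setting were not given in the sources used here. As deposited, expected counts are estimated reads per gene or transcript without normalization. TPM in the deposited tables is a length-corrected share that the authors scaled over every listed feature, spike-ins too. FPKM, also by the authors, is scaled to kilobases and depth. Transcript shares were deposited as percent of the gene's TPM. Posterior means, posterior SDs and TPM intervals were taken as the authors listed them.

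Genes were named from GENCODE M21 by identifier without its version. The members, gene lists, motifs and thresholds were chosen with earlier results of these data known. Named genes were all 10 factors and all paralogs, up to 4 of the highest and 2 of the lowest of each other list, the nearest gene of each factor, and transcripts with a mean share of 10% or more. Others were named after their values were seen: Kdm1a, Spi1, some transcripts under that share and some lineage markers. Detection meant at least 1 TPM in each library. Log2 ratios carry a pseudocount of 0.1 and so understate the differences of low genes. Coding forms and starts come from M21 models, which had the same length in the tables for all but 3 of 63 transcripts. E12 and E47 exons were told apart in protein-coding models by the codons of the basic region. Scaled counts came from edgeR 4.0.16 (TMM) and DESeq2 1.42.0 (size factors) in R 4.3.3 on expected counts rounded to whole numbers; the rest used Python 3.11.15, pandas 2.3.3 and numpy 2.4.6. The 2-fold call was tried on simulated counts only in a like form, without the pseudocount of 0.1 and with ratios centred on their median. Reads carry no molecular identifiers, so count floors cover counting error only. The labels call the libraries biological replicates, and spreads describe these cultures alone.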

Additional observations from a re-analysis of the deposited data

How the results depend on the processing

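All 10 factors were detected under each of 8 alternatives: TPM limits of 0.5 and 5, TPM over nuclear protein-coding genes, FPKM, posterior mean TPM, either replicate alone, and transcripts of 1000 nt or longer (added after the data were seen). None was 2-fold apart without a pseudocount, with 1, without the filter on low values, or on counts scaled by edgeR or DESeq2. In that order, 3.87%, 2.99%, 4.67%, 4.31% and 4.31% of all genes taken were 2-fold apart. The factor led its family in 5 to 7 of 9 families. On expected counts Tal1 entered that group and Nfe2 left it, and over transcripts of 1000 nt or longer Nfe2 left it. Leaving out a replicate gave 6 and 7. The number with 1 dominant transcript was 6 under all alternatives except at 75%, where it was 4 (Gata1, Tal1, Lmo2 and Cbfa2t3). Posterior mean TPM and FPKM kept the order of the 10 factors. No paired analysis was possible because there is 1 group.

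With 2 libraries and no contrast, no difference was tested. Gene TPM depends on the transcript models to which reads are assigned, and without models under 1000 nt mean TPM was 30.3 in place of 80.3 for Nfe2, 48.2 in place of 72.0 for Zfpm1, 32.0 in place of 63.4 for Tcf12, 38.8 in place of 76.9 for Ssbp3, 1.01 in place of 2.96 for Gata3 and 4.79 in place of 11.6 for Nfe2l1. For Id1 it was 1.53 in place of 10.9.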

Other observations

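Factors that share sites with the 10 were all detected, 12 of 12, beside 40.2% of nuclear protein-coding genes. The median TPM of the 12 was 22.8. Myb, a progenitor factor, was the highest at 98.7 and 111.0, followed by Ikzf1 (46.0 and 45.1), Stat5a (42.0 and 43.4) and Runx1 (35.1 and 34.4). The lowest were the ETS factors Fli1 (2.99 and 2.53) and Erg (1.74 and 1.38), which are known from megakaryocytes and stem cells. Spi1, the myeloid PU.1 gene that GATA1 opposes, was at 18.7 and 17.9 TPM, below Klf1 in both libraries. Of 11 mast cell and basophil markers 2 were detected, Cpa3 (26.7 and 28.0) and Hdc (1.92 and 1.89), and Mcpt8, Mcpt4, Prss34, Mrgprb2 and Fcer1a had 0 counts. Of 12 lymphoid markers none was detected and 10 had 0 counts in both libraries.

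Among 119 genes of the lists, the gene nearest in level to each factor over the 2 libraries, by distance in log2(TPM + 0.1), was Hdac1 for Cbfa2t3 (distance 0.0243), Mta2 for Tal1 (0.0553), Hba-a1 for Gfi1b (0.0866), Epb41 for Gata1 (0.0949), Zmynd8 for Tcf3 (0.0996), Chd4 for Zfpm1 (0.112), Bcl11a for Klf1 (0.114), Irf2bp2 for Ldb1 (0.120), and Ssbp3 for both Nfe2 (0.115) and Lmo2 (0.130). With 2 libraries this likeness is mostly one of level.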
